A study of Mus musculus with 60 samples.

Results

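The comparison described here is between bulk cortex RNA of the groups labelled SA:ANH and SA, 6 libraries each, which are 12 of the 60 libraries of the series. The mice were DBA2/J, the tissue was medial prefrontal cortex (mPFC), and the animals expressed GFP-L10a, a green fluorescent tag on ribosomal protein L10a that lets ribosome-bound RNA be pulled down with an antibody to GFP. The 5 groups are labelled NS, RES, ANH, SA and SA:ANH, and the design text gives 5 days of social defeat stress. The labels do not spell the abbreviations out, so they are used as given. Each group has 6 Input libraries, labelled mPFC (Bulk) and made with no antibody, and 6 IP libraries from the GFP pulldown, labelled aPVT projector. The tag is shared by every group of both fractions. The labels used here give no age, no way in which the tag was delivered, and no statement on whether a library came from 1 mouse or a pool, so p-values measure only how these libraries vary, and part of that variation may be technical. The members were all 18170 genes of the Input libraries that passed a filter on low counts, of 55414 in the deposited table. The 12 libraries held 20566990 to 27073456 estimated read counts each. Levels are given as CPM, read counts scaled to a common library size with TMM factors, and differences as log2 fold changes, SA:ANH minus SA, with their standard errors. A gene is called where edgeR's quasi-likelihood test gave an adjusted p below 0.05 over all genes tested.

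Markers of the labelled tissue were present in all 12 libraries. Slc17a7, the vesicular glutamate transporter of cortical excitatory neurons, ranged from 1160 to 1332 CPM in SA and from 1192 to 1344 in SA:ANH. The interneuron enzyme gene Gad1 ranged from 204 to 229 CPM in SA and from 206 to 237 in SA:ANH. Neither gene passed the test between the groups (log2 fold changes 0.02, adjusted p = 0.797, and 0.04, adjusted p = 0.604). Ttr, which defines choroid plexus, stayed below 1 CPM in all 12 libraries.

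Of the 18170 genes tested, 643 were called (3.54%), 287 higher in SA:ANH (1.58%) and 356 lower (1.96%). The 6 SA:ANH libraries lay entirely above the 6 SA libraries for 143 genes (0.787%) and entirely below for 156 (0.859%), 299 genes in all (1.65%). The changes were small. The median size of the called rises was 0.23 on the log2 scale, and 3 of the 287 reached a 2-fold difference. Called falls had a median size of 0.57, and 84 of the 356 reached 2-fold. These 2 sets were made of different kinds of gene: 283 of the 287 rises were protein coding, whereas 152 of the 356 falls were pseudogenes (42.7%, against 6.37% of all genes tested) and 168 were protein coding. Among protein-coding genes alone, the median size was 0.23 for the rises and 0.27 for the falls. Of these, 3 rises and 7 falls reached 2-fold.

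Before the genes are described, 3 libraries need naming. On the first principal component of the 30 Input libraries, SA:ANH library 1 lay at 46.5, SA:ANH library 2 at 43.2 and SA library 5 at -29.3. The NS libraries lay at -39.2 to -18.5, so SA library 5 was at the end of its own group only. At the other end of SA was library 2, at 14.8. The share of counts on processed pseudogenes was 1.55 to 1.99% in SA and 1.39 to 1.69% in SA:ANH, and the share on mitochondrially encoded genes was 1.57 to 2.13% and 1.35 to 2.01%. The 3 libraries were chosen after seeing the data, and they lie at the outer ends of an axis along which the 2 groups also differ. Leaving them out therefore brings the groups closer on that axis, whereas leaving out SA library 2 alone gave 805 called genes. With those 3 libraries left out, 88 genes were called, 58 higher and 30 lower, and none of the lower ones was a pseudogene. Of the 643 genes, 81 kept their call, 54 higher and 27 lower. With the pseudogene share as a covariate, 54 genes were called, of which 31 were higher and 23 lower. None of the lower ones was a pseudogene, but the covariate is itself made of pseudogene counts, so this fit cannot show how pseudogenes differ. The share also differed between the groups, with medians of 1.77% in SA and 1.53% in SA:ANH. The covariate can therefore take up part of the group difference, and a call lost with it does not show that the gene is unchanged. Without the 3 libraries a call can also be lost because fewer libraries are compared, so the fold change found there is given beside a lost call. A set of 35 genes, 23 higher and 12 lower, was called in the same direction under all 24 alternative settings that were run. Of the genes described below, it holds Arc, Fos, Dusp1, Gria2, Snap25, Mbp and Penk among others. Many described below are not in it, such as Npas4, Vgf, Cplx2, Cldn11 and Drd2.

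**Figure D1:**
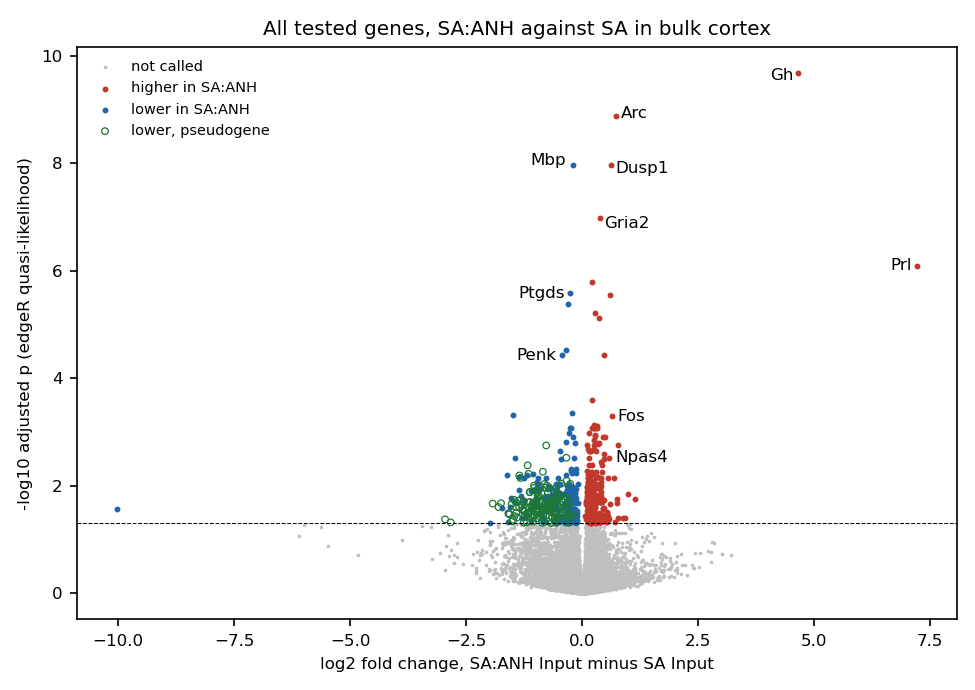
Each point is 1 of the 18170 genes tested in bulk cortex, with the log2 fold change (SA:ANH minus SA) on the x axis and minus log10 of the adjusted p-value on the y axis. The named genes include Arc, Dusp1, Gria2, Fos and Npas4 on the higher side and Mbp, Penk and Ptgds on the lower side, and most called genes lie within a 2-fold difference.

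Immediate early genes are transcribed within minutes of strong synaptic input, without new protein synthesis, and their RNAs are short-lived. Many are switched on through calcium and cyclic AMP signals that reach the factor CREB, which binds the palindrome TGACGTCA and its shorter form TGACG, or through the ERK pathway and serum response factor. Some encode transcription factors (Fos, Junb, Npas4), some encode brakes on the signal itself (the phosphatases Dusp1 and Dusp6), and Arc acts at the synapse, where it takes part in the removal of AMPA-type glutamate receptors. In the prefrontal cortex they are widely used as a record of recent neuronal activity.

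The promoters of 5 of the immediate early genes that rose are shown because these genes moved together, followed by that of the clock gene Ciart. Each is the 250 bases before the gene's start in RefSeq's annotation of GRCm38.p6, read 5′ to 3′ on the gene's strand. The gene positions given below are GENCODE's, and those of Dusp1 and Npas4 reach past the RefSeq start. The windows of Dusp1 and Npas4 therefore lie inside the gene as GENCODE places it. Capitals mark TGACG in either orientation, the palindrome TGACGTCA included, or CACGTG in Ciart.
Fos (chr12:85473640-85473889, plus strand): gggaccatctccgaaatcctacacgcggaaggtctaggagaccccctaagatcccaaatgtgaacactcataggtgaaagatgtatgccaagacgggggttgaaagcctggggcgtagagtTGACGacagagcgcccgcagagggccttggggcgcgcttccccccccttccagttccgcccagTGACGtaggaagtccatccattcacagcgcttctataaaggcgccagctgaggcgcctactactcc
Dusp1 (chr17:26508473-26508722, minus strand): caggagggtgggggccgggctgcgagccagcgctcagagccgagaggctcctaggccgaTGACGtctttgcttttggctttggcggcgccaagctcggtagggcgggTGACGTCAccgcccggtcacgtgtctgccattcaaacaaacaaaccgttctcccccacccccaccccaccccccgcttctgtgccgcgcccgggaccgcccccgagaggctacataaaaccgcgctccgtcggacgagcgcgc
Btg2 (chr1:134079156-134079405, minus strand): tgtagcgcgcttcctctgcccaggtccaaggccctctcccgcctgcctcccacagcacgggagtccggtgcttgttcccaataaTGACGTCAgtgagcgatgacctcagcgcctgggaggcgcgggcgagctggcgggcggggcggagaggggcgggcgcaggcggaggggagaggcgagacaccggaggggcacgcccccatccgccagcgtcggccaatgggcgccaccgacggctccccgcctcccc
Npas4 (chr19:4989972-4990221, minus strand): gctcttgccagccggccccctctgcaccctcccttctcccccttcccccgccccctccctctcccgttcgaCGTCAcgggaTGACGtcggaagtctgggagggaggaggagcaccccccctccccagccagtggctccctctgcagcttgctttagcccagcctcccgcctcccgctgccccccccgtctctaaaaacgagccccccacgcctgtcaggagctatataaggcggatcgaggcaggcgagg
Junb (chr8:84978749-84978998, minus strand): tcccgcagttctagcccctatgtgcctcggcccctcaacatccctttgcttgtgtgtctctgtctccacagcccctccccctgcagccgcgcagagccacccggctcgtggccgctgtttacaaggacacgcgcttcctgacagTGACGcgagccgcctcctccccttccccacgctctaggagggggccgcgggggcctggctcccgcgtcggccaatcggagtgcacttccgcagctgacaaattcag
Ciart (chr3:95882229-95882478, minus strand): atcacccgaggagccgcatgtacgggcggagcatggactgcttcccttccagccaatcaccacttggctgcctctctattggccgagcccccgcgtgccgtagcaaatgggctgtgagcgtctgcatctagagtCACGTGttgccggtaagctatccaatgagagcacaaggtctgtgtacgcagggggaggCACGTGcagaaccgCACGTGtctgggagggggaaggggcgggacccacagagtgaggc
In the Dusp1 and Btg2 windows the full palindrome was found, beginning 143 and 166 bases before the start. The Fos window held TGACG at 129 and 66 bases before the start, the Npas4 window held it in both orientations, at 179 and 169 bases, and the Junb window once, at 106 bases. Of the 11 immediate early genes that rose, 9 were in the promoter table and 7 of those had TGACG on either strand. Over all 32851 promoters of the same length, 17.8% held TGACG and 1.55% the palindrome, which contains TGACG. The CArG box, the letters that serum response factor binds, was searched as well. It was found in none of the 9 windows and in 1.47% of all promoters. A match describes letters only and does not show that a factor bound there.

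Among the immediate early genes, 11 of the 34 tested rose in SA:ANH, 1 fell and 22 did not pass the test. Over all genes tested, 1.58% rose and 1.96% fell, and each list below is to be read beside these shares. The median log2 fold change of the 34 was 0.05, against 0.01 over all genes tested. In 10 of the 11, all 6 SA:ANH libraries lay above all 6 SA libraries. That held for 0.787% of all genes tested, and the groups did not overlap for 106 of the 287 called rises. The summed level of all 34 tested, risen or not, was 1625 to 1702 CPM in SA and 1795 to 1923 CPM in SA:ANH. Without the 3 libraries named above, 7 rose and none fell, and with any single library left out, 9 to 11 rose.

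Arc (chromosome 15, 74669083 to 74672570, minus strand, GRCm38) had the smallest p of all genes above 10 CPM. Its level was 106 to 135 CPM in SA (median 115) and 167 to 218 CPM in SA:ANH (median 194). Every SA:ANH library exceeded every SA library, and the log2 fold change was 0.74 ± 0.06 (SE, adjusted p = 1.32e-09). Without the 3 libraries it was 0.68 (adjusted p = 4.91e-07).

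Fos (chromosome 12, 85473890 to 85477273, plus strand), a subunit of the AP-1 transcription factor, was present at 25.4 to 31.2 CPM in SA (median 27.8) and at 35.8 to 49.4 CPM in SA:ANH (median 46.5). The groups did not overlap, and the log2 fold change was 0.64 ± 0.10 (adjusted p = 0.000516). Junb (chromosome 8, 84974484 to 84978718, minus strand), an AP-1 partner of Fos, ranged from 115 to 133 CPM in SA (median 119) and from 146 to 165 CPM in SA:ANH (median 153). All 6 SA:ANH libraries were again the higher ones, with a log2 fold change of 0.36 ± 0.05 (adjusted p = 7.58e-06). Npas4 (chromosome 19, 4984355 to 4990316, minus strand), a neuron-restricted transcription factor induced by calcium entry, was lower in abundance, at 16.1 to 21.4 CPM in SA (median 17.4) and 23.6 to 32.3 CPM in SA:ANH (median 27.6). Its groups were separate too, and the log2 fold change was 0.59 ± 0.11 (adjusted p = 0.003; 0.0576 with the pseudogene share as a covariate).

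The feedback inhibitors moved by similar amounts. Dusp1 (chromosome 17, 26505590 to 26562128, minus strand), a phosphatase that switches off MAP kinases, ranged from 51.6 to 63.5 CPM in SA (median 53.5) and from 77.3 to 94.8 CPM in SA:ANH (median 85.8). The lowest SA:ANH library was above the highest SA library by more than the whole SA range, and the log2 fold change was 0.62 ± 0.06 (adjusted p = 1.09e-08). Btg2 (chromosome 1, 134075170 to 134079120, minus strand), an antiproliferative gene that speeds the decay of messenger RNA, rose from 32.1 to 37.3 CPM in SA (median 35.2) to 46.8 to 64.1 CPM in SA:ANH (median 51.8), a log2 fold change of 0.60 ± 0.07 (adjusted p = 2.76e-06). Dusp6, a phosphatase specific for ERK, was called at a smaller size, 52.6 to 58.6 CPM in SA against 66.1 to 74.0 CPM in SA:ANH (log2 fold change 0.32 ± 0.05, adjusted p = 0.000832). These 3 inhibitors kept their calls without the 3 libraries.

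Other calls in the list were lost without those libraries. Ier2, Nr4a1 and Gadd45g rose by 0.41 (adjusted p = 0.00843), 0.29 (adjusted p = 0.0071) and 0.29 (adjusted p = 0.0155) with groups that did not overlap. Without the 3 libraries the values were 0.38 (adjusted p = 0.0846), 0.21 (adjusted p = 0.187) and 0.28 (adjusted p = 0.133). Ccn1, a secreted matrix protein gene, was called at 0.53 ± 0.16 (adjusted p = 0.047) with overlapping groups, and it lost the call when any of 10 of the 12 libraries was left out. Jund, the AP-1 member least tied to stimulation, was the gene that fell, by 0.18 (adjusted p = 0.0276), and its value without the 3 libraries was -0.20 (adjusted p = 0.111). The list did not move as a whole: Egr1, a zinc-finger factor of the same class and another common activity marker, was 232 to 273 CPM in SA and 229 to 254 CPM in SA:ANH (log2 fold change -0.06 ± 0.04, adjusted p = 0.471). Ier2, Dusp6, Nr4a1, Gadd45g, Jund and Egr1 lie outside the naming rule and were chosen after their values were seen.

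**Figure D2:**
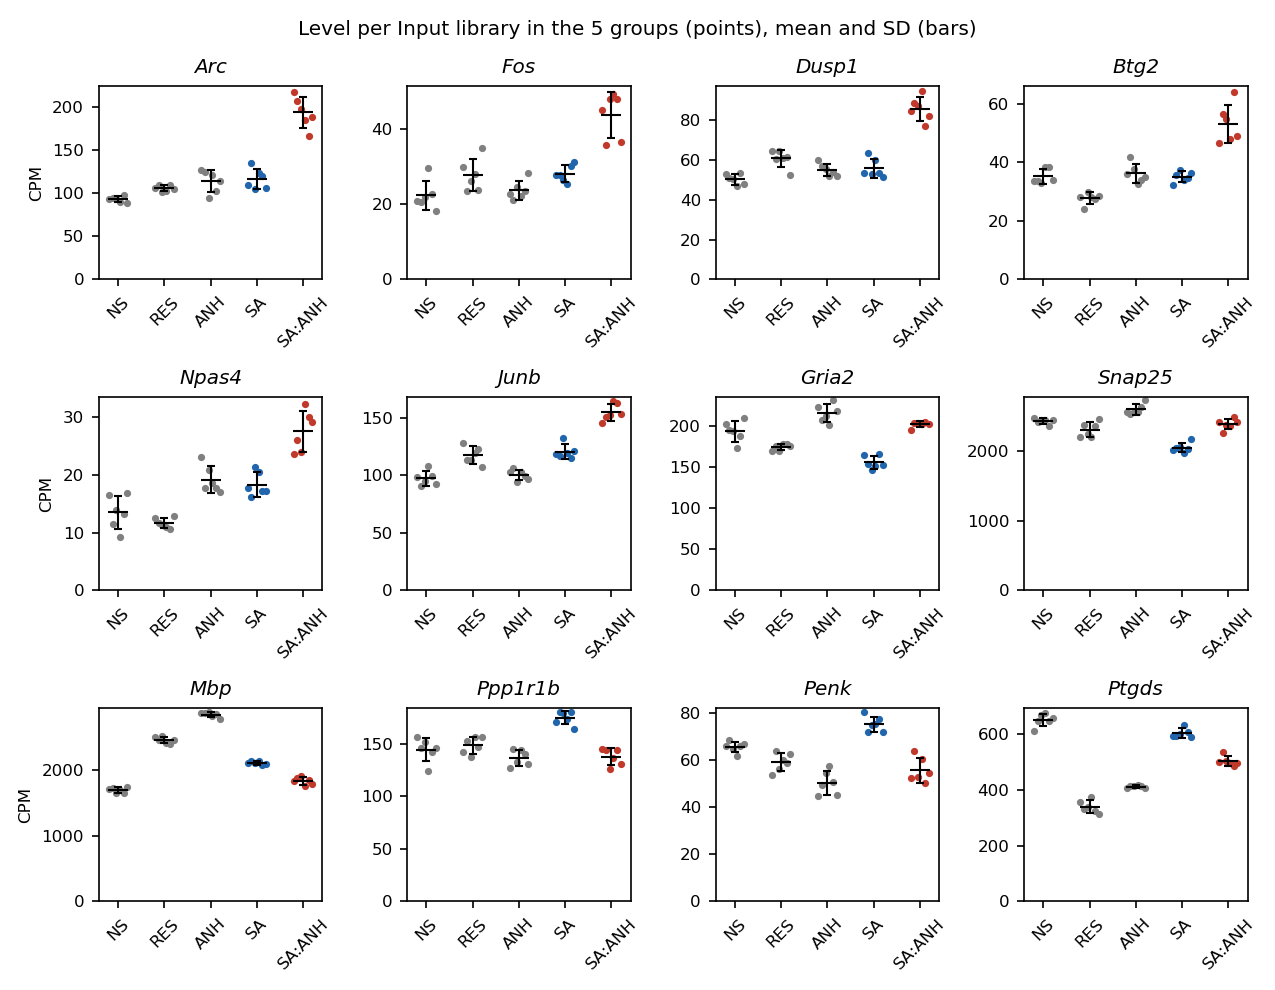
CPM of 12 genes in each Input library of the 5 groups (points, 6 per group), with the group mean and SD as bars. In the panels of Arc, Fos, Dusp1, Btg2, Npas4 and Junb every SA:ANH library lies above every SA library, and in those of Mbp, Ppp1r1b, Penk and Ptgds every SA:ANH library lies below.

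Later activity-dependent genes, which encode secreted peptides, synaptic proteins and signalling regulators, did not move in 1 direction. Of 26 tested, 2 rose and 4 fell, with a median log2 fold change of -0.03. Rgs4, which shortens signalling through G proteins, was 418 to 442 CPM in SA (median 424) and 466 to 536 CPM in SA:ANH (median 490), with no overlap (log2 fold change 0.21 ± 0.03, adjusted p = 0.000255, and 0.0039 without the 3 libraries). Vgf, the precursor of several neuropeptides and a target of the growth factor Bdnf, was 118 to 139 CPM in SA (median 133) and 102 to 116 CPM in SA:ANH (median 114). All SA:ANH libraries were lower here (-0.24 ± 0.05, adjusted p = 0.00527, 0.0293 without the 3 libraries and 0.111 with the pseudogene share as a covariate). Homer1, a postsynaptic scaffold gene, fell by 0.32 (adjusted p = 0.00996), and Nptx2, a secreted pentraxin that gathers AMPA receptors, fell by 0.73 (adjusted p = 0.0202). Without the 3 libraries the values were -0.28 (adjusted p = 0.126) and -0.58 (adjusted p = 0.248). Plk2 (0.14, adjusted p = 0.0484) and Nptx1 (-0.14, adjusted p = 0.0495), both chosen after their values were seen, were also called narrowly, and lost their calls when 1 of 7 and 1 of 10 of the libraries was left out. Bdnf itself ranged from 14.1 to 21.5 CPM in SA and up to 21.6 CPM (median 19.9) in SA:ANH and did not pass (0.09 ± 0.09, adjusted p = 0.693).

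Circadian clock genes form a loop in which CLOCK and its partner bind E-boxes (CACGTG) and drive their own repressors as well as output factors such as Dbp and Tef. Of 19 clock genes tested, 3 rose (1.58% of all genes tested did) and none fell, with a median log2 fold change of 0.09. All 3 are outputs or repressors of the loop. Dbp was 119 to 141 CPM in SA (median 132) and 144 to 178 CPM in SA:ANH (median 156), with no overlap (0.27 ± 0.05, adjusted p = 0.00118, and 0.00764 without the 3 libraries). Ciart, a repressor of the loop, ranged from 23.2 to 32.0 CPM in SA (median 28.6) and from 32.6 to 39.9 CPM in SA:ANH (median 37.2). Its groups were just apart (0.41 ± 0.08, adjusted p = 0.00366, and 0.39 without the 3 libraries, adjusted p = 0.051), and its promoter, printed above, holds CACGTG 3 times. Tef rose by 0.18 with overlapping groups (adjusted p = 0.0147), and was at 0.17 without the 3 libraries (adjusted p = 0.121). CACGTG was found in the windows of 2 of these 3 genes and in 6.02% of all promoters. It was also found in those of Dusp1 and Gadd45g, among the immediate early genes that rose. The labels used here do not give the hour of tissue collection.

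Genes driven by the glucocorticoid receptor, the arm through which stress hormone reaches gene expression, gave few calls. Of 23 tested, 1 rose and 1 fell, with a median of -0.01. Sgk1, a kinase induced by the hormone, rose by 0.26 with overlapping groups (adjusted p = 0.0218), and its value without the 3 libraries was also 0.26 (adjusted p = 0.12). The cell-cycle inhibitor Cdkn1a fell by 0.30 (adjusted p = 0.0167, 0.0316 without the 3 libraries and 0.121 with the pseudogene share as a covariate). Fkbp5, a cochaperone of the receptor and a widely used target gene, was 15.8 to 20.3 CPM in SA and 13.6 to 21.7 CPM in SA:ANH (log2 fold change -0.03 ± 0.09, adjusted p = 0.913). None of the 9 tested genes of the CRH and stress peptide axis was called.

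Genes of the excitatory synapse held some of the firmest single differences of the comparison, without a common direction. Fast glutamate transmission runs through AMPA receptors, tetramers in which the GluA2 subunit, encoded by Gria2, keeps calcium out. Gria2 (chromosome 3, 80681450 to 80802835, minus strand) was 146 to 166 CPM in SA (median 153) and 195 to 205 CPM in SA:ANH (median 203). The lowest SA:ANH library was well above the highest SA library, with a log2 fold change of 0.38 ± 0.04 (adjusted p = 1.03e-07, and 0.41 without the 3 libraries). Gria3, encoding another AMPA subunit, rose by 0.22 ± 0.06 with overlapping groups (adjusted p = 0.0289), and was at 0.23 without the 3 libraries (adjusted p = 0.107). Across the 42 ionotropic receptor and scaffold genes tested, 2 rose and 2 fell (Homer1 and Dlgap3, both postsynaptic scaffolds), and the median was -0.03. Dlgap3 fell by 0.25 (adjusted p = 0.0274), and was at -0.22 without the 3 libraries (adjusted p = 0.226). Grm2, the presynaptic metabotropic receptor that damps glutamate release, was 107 to 121 CPM in SA and 134 to 155 CPM in SA:ANH (0.30 ± 0.06, adjusted p = 0.00225, and 0.27 without the 3 libraries, adjusted p = 0.0611).

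The release machinery was split in the same way, with 2 rises and 4 falls among 38 genes tested and a median of 0.00. Snap25 (chromosome 2, 136713453 to 136782428, plus strand), the membrane SNARE of synaptic vesicle fusion, was among the most abundant RNAs, at 1977 to 2183 CPM in SA (median 2039) and 2267 to 2500 CPM in SA:ANH (median 2403). The groups did not overlap, and the log2 fold change of 0.22 ± 0.03 (adjusted p = 1.63e-06) was 0.23 without the 3 libraries. Complexin 2, encoded by Cplx2, clamps and then helps to trigger fusion, and its RNA was 211 to 232 CPM in SA (median 216) and 174 to 196 CPM in SA:ANH (median 178). That difference was in the other direction, -0.27 ± 0.05 (adjusted p = 0.000856, 0.0181 without the 3 libraries and 0.0701 with the pseudogene share as a covariate), as was that of Rph3a, a Rab3 effector on vesicles (-0.24 ± 0.04, adjusted p = 0.000856, and 0.00548 without the 3 libraries). Vamp2, the vesicle SNARE, fell by 0.10 (adjusted p = 0.00923), with the same value, -0.10, without the 3 libraries (adjusted p = 0.059). The remaining calls were Nsf, which takes used SNARE complexes apart (0.12, adjusted p = 0.0154), and Syt7, a calcium sensor (-0.20, adjusted p = 0.0333), both named after their values were seen. Without the 3 libraries they were at 0.10 (adjusted p = 0.17) and -0.16 (adjusted p = 0.296).

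Oligodendrocytes wrap axons in myelin, whose main structural proteins include myelin basic protein (Mbp). In these bulk samples fewer cells of a type and less RNA per cell cannot be told apart. Of 28 myelin and mature oligodendrocyte genes tested, 7 fell (1.96% of all genes tested did) and none rose, with a median of -0.09. The summed level was 4612 to 4826 CPM in SA and 4175 to 4450 CPM in SA:ANH, with no overlap. Mbp, given next, makes up a large part of this sum, so the sum says little about the other members. Mbp, on chromosome 18, was 2074 to 2145 CPM in SA (median 2110) and 1765 to 1911 CPM in SA:ANH (median 1841). This small difference was far outside the spread between libraries (-0.20 ± 0.02, adjusted p = 1.09e-08, and -0.21 without the 3 libraries). The other 6 that fell were Cldn11 (-0.68), a tight junction protein of myelin, Aspa (-0.57), which splits N-acetylaspartate, Sox10 (-0.43), the lineage's transcription factor, and Opalin (-0.24), Mog (-0.24) and Mag (-0.19), membrane proteins of oligodendrocytes. Their adjusted p-values were 0.0109 to 0.0475, and of these 6 only Opalin was called without the 3 libraries (-0.31, adjusted p = 0.0343). The values of the others without them were -0.51 for Cldn11, -0.61 for Aspa, -0.53 for Sox10, -0.29 for Mog and -0.25 for Mag, so that all but Cldn11 were no smaller. Without those libraries 3 members of the list fell, and with any single library left out, 2 to 7: 2 without SA:ANH 5, SA 1 or SA 6, 3 without SA:ANH 1, SA 3 or SA 5, and 4 without SA:ANH 4 or SA 4. With the pseudogene share as a covariate 1 fell, Mbp, and Opalin was not called (adjusted p = 0.208). Opalin, Aspa, Mog, Sox10 and Mag each lost their call when 1 of 7 to 9 of the 12 libraries was left out. Mog, Sox10 and Mag were chosen after their values were seen. Among 17 precursor genes, 1 fell, the early oligodendrocyte gene Bcas1 (-0.22, adjusted p = 0.0369, and -0.20 without the 3 libraries, adjusted p = 0.253).

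Striatum lies close to the medial prefrontal cortex, and a list of genes enriched there was included for that reason, although cortical neurons express several of them. Of 19 striatal genes tested, 3 fell (1.96% of all genes tested did) and none rose, with a median of -0.19. The summed level was 403 to 422 CPM in SA and 325 to 340 CPM in SA:ANH, with no overlap. Ppp1r1b and Penk, given next, make up a large part of this sum, so it says little about the other members. Ppp1r1b (chromosome 11, 98348404 to 98357796, plus strand), whose product DARPP-32 relays dopamine signals, was 164 to 180 CPM in SA (median 176) and 126 to 144 CPM in SA:ANH (median 140). Its groups were apart (-0.34 ± 0.05, adjusted p = 2.93e-05, and 0.000245 without the 3 libraries). Penk (chromosome 4, 4133531 to 4138819, minus strand), the precursor of the enkephalin opioid peptides, was 71.6 to 80.2 CPM in SA (median 74.9) and 50.2 to 63.8 CPM in SA:ANH (median 53.6). Again all SA:ANH libraries were lower (-0.43 ± 0.06, adjusted p = 3.74e-05, and 0.000242 without the 3 libraries). Drd2, the dopamine D2 receptor gene, was scarce, at 1.47 to 3.82 CPM in SA and 0.692 to 1.81 CPM in SA:ANH (-1.24 ± 0.35, adjusted p = 0.0389, and -1.04 without the 3 libraries, adjusted p = 0.302). The Drd2 call was lost when 1 of 10 of the 12 libraries was left out. Drd1, a defining gene of the other striatal output neurons, was 14.7 to 20.5 CPM in SA and 13.4 to 21.6 CPM in SA:ANH (-0.02 ± 0.14, adjusted p = 0.966). The part of neighbouring striatal tissue in the differences of Ppp1r1b, Penk and Drd2 was not tested. Pcp4, a calmodulin regulator listed here with deep-layer projection neurons, fell by 0.23 ± 0.04 (adjusted p = 0.000445, and 0.0316 without the 3 libraries).

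Other cell types gave few calls, where 1.58% of all genes tested rose and 1.96% fell. Ptgds (chromosome 2, 25466709 to 25470046, minus strand), which makes prostaglandin D2 and is strong in meninges and oligodendrocytes, was 591 to 634 CPM in SA (median 598) and 486 to 536 CPM in SA:ANH (median 499). It was lower in every SA:ANH library (-0.26 ± 0.03, adjusted p = 2.64e-06, and 2.56e-05 without the 3 libraries). It was the only one of 23 meningeal genes called, and the list's median was 0.02. Of 23 astrocyte genes 4 rose and 1 fell: the rises were Acsbg1 (0.22), Gfap (0.23), Gjb6 (0.27) and Id3 (0.20, chosen after its value was seen), and the fall was the glutamate transporter gene Slc1a2 (-0.19). Of 23 microglial genes 2 rose, the purine receptor gene P2ry12 (0.38) and the growth factor receptor gene Csf1r (0.18), and of 21 endothelial genes 1 rose, Ly6c1 (0.23). P2ry12 lost its call when 1 of 10 libraries was left out and Csf1r when 1 of 9 was. No member of these 3 lists was called without the 3 libraries, where the values were 0.17 for Acsbg1, 0.16 for Gfap, 0.25 for Gjb6, 0.12 for Id3, 0.40 for P2ry12, 0.14 for Csf1r and 0.19 for Ly6c1. Slc1a2, at -0.17 there (adjusted p = 0.0624), was called under every other setting run, with an adjusted p of 0.0193 with the pseudogene share as a covariate. The defining microglial gene Cx3cr1, at 66.7 to 77.1 CPM in SA and 57.5 to 71.3 CPM in SA:ANH, did not pass (-0.15, adjusted p = 0.269).

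**Figure D3:**
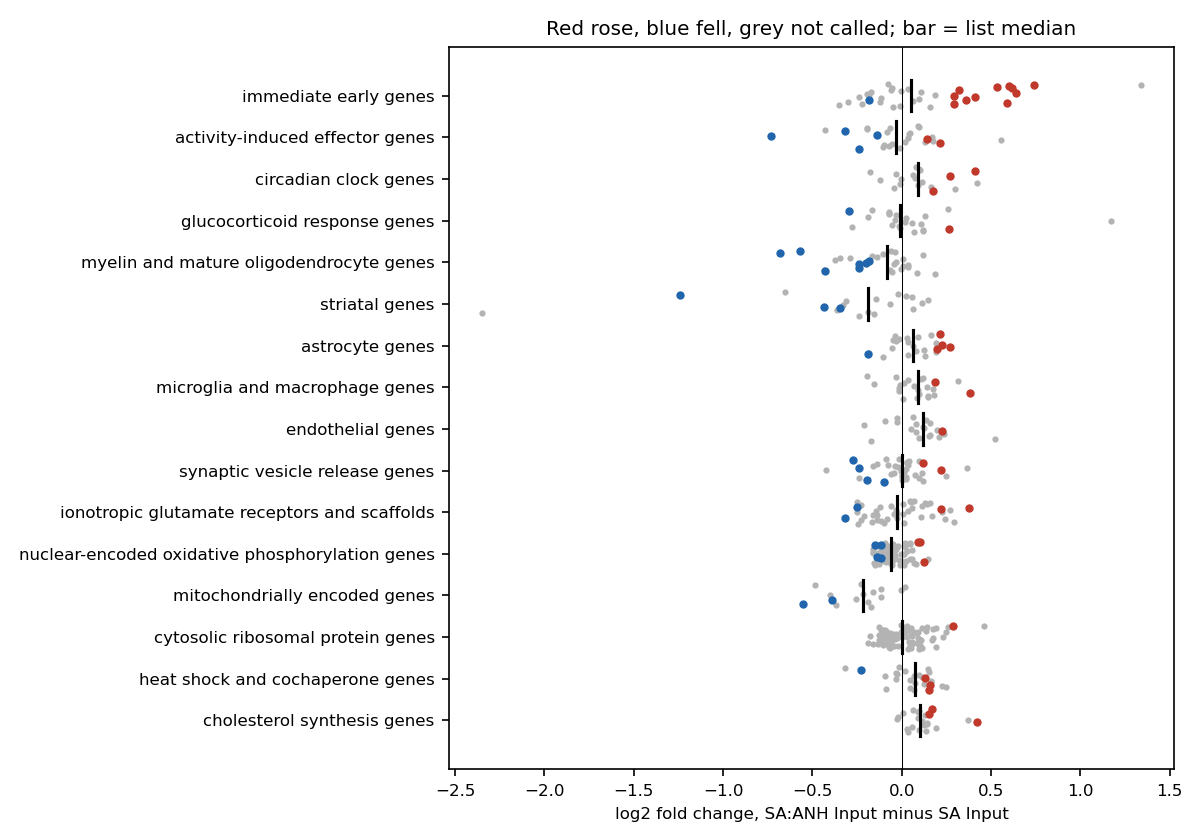
Log2 fold change (SA:ANH minus SA, x axis) of each tested member of 16 gene lists, 1 point per gene with called genes marked, and a bar at each list's median. Immediate early genes hold 11 rises and 1 fall, myelin genes hold 7 falls and striatal genes 3, while most members of every list did not pass. Over all genes tested, 1.58% rose and 1.96% fell.

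Housekeeping programmes held few calls, to be read beside the same shares of all genes, 1.58% higher and 1.96% lower. Nuclear-encoded subunits of oxidative phosphorylation had 3 rises and 4 falls among 75 tested (median -0.06), such as the ATP synthase subunits Atp5b (0.10, adjusted p = 0.00178) and Atp5h (-0.11, adjusted p = 0.0362) and the complex II subunit Sdha (0.13, adjusted p = 0.0244), the last 2 chosen after their values were seen. No member of that list was called without the 3 libraries, where these 3 genes were at 0.08, -0.12 and 0.12. Of 15 mitochondrially encoded genes 2 fell and 14 had negative values, with a median of -0.22. The mitochondrial groups overlapped for all 15, and none was called without the 3 libraries. Heat shock and cochaperone genes had 3 rises and 1 fall among 26 (median 0.07): the cytosolic chaperones Hspa8 (0.16), Hsp90aa1 (0.13) and Hsph1 (0.15) rose and the small heat shock gene Cryab, strong in oligodendrocytes, fell (-0.23). Cholesterol synthesis genes had 3 rises among 22 (median 0.10), among them the squalene synthase gene Fdft1 (0.15) and the acetyl-CoA acetyltransferase gene Acat2 (0.17). These chaperone and cholesterol calls were lost without the 3 libraries, where Hspa8 was at 0.09, Hsp90aa1 and Hsph1 at 0.13, Cryab at -0.19, Fdft1 at 0.13 and Acat2 at 0.20. No gene was called among 31 proteasome subunits, 24 genes of ER stress, 38 translation factors, 21 interferon response genes or 33 growth factor genes.

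Of 81 cytosolic ribosomal protein genes, 1 was called, Rpl10a, the gene whose product carries the tag. It was 71.6 to 80.7 CPM in SA and 82.5 to 116 CPM in SA:ANH (0.29 ± 0.07, adjusted p = 0.0109, and 0.19 without the 3 libraries, adjusted p = 0.2). The gene's own reads and those of the tagged copy cannot be told apart in this table.

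Several of the large falls had a wide spread between libraries. The 15 largest falls above 10 CPM, pseudogenes and predicted genes aside, ran from -0.47 to -1.02. Lrrc17 was 81.2 to 245 CPM in SA (median 148) and up to 110 CPM in SA:ANH (median 86.4), with overlap (-0.96 ± 0.21, adjusted p = 0.00915). Tatdn1 (-0.77), the synaptic kinase anchor gene Akap5 (-0.71), mt-Nd6 (-0.55) and the mitochondrial transfer RNA gene mt-Ts1 (-1.02) behaved alike in that their groups overlapped. Without the 3 libraries their values were -0.54 for Lrrc17, -0.46 for Tatdn1, -0.40 for Akap5, -0.33 for mt-Nd6 and -0.58 for mt-Ts1, and none was called (adjusted p from 0.233 to 0.361). Smn1 (-0.48 with all libraries and -0.47 without the 3) and the retinoic acid receptor gene Rara (-0.59 and -0.54), of the same 15, changed little in size. With the pseudogene share as a covariate, Lrrc17 was at -0.30, Tatdn1 at -0.31, Akap5 at -0.23, mt-Nd6 at -0.43 and mt-Ts1 at -0.28. None of these 5 was called there (adjusted p from 0.313 to 0.602). Smn1 was at -0.44 and Rara at -0.58 in that fit, also not called. The pseudogene share differs between the groups, so its part in these values cannot be told apart from the group difference. The part of the mitochondrial share was not tested. Whether the counting used strand is not stated in the labels or notes, so reads of overlapping genes, mt-Nd6 among them, may be mixed.

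**Figure D4:**
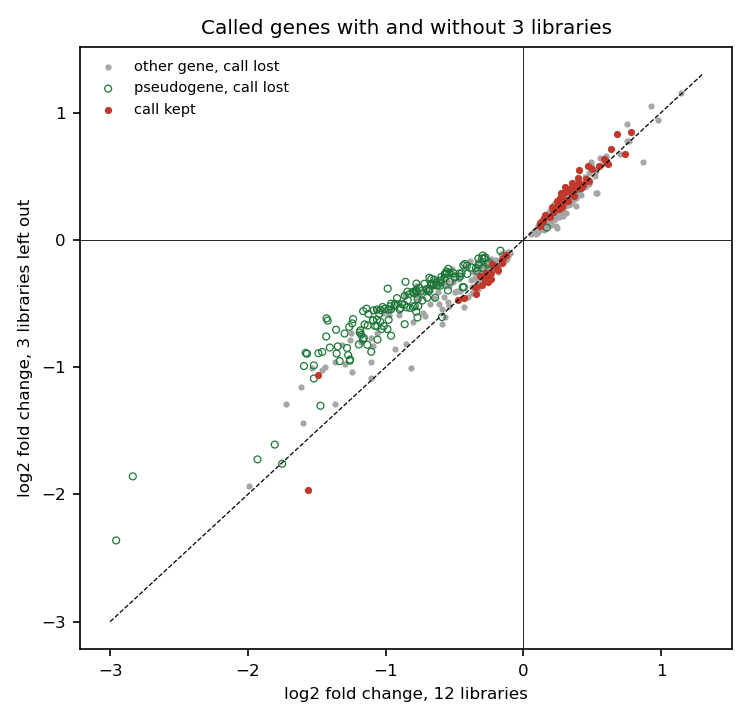
Log2 fold change of each called gene with all 12 libraries (x axis) against the value without SA:ANH libraries 1 and 2 and SA library 5 (y axis). Genes beyond 3.2 on the x axis (Gh, Prl and Snurf) are not drawn. Of the 54 rises and 27 falls that kept their call, all but Gh and Prl are marked. Most of the lower pseudogenes, none of which kept it, lie nearer to 0 on the y axis than on the x axis.

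RNA of pituitary hormones gave large ratios at low levels. These genes were chosen after their values were seen. Growth hormone (Gh, chromosome 11, 106300271 to 106301865, minus strand) had 38 counts in the 6 SA libraries (0 to 0.637 CPM) and 909 in the 6 SA:ANH libraries (5.15 to 8.01 CPM). No library of one group came near the other, and the ratio of the summed levels was 26.0 (95% interval 18.8 to 37.0, for counting error only). Prolactin (Prl, chromosome 13, 27057570 to 27065205, plus strand) had 0 counts in SA and 104 in SA:ANH (0.258 to 0.983 CPM), at least 37.7-fold higher when SA is set to a floor of 3 counts summed over its libraries. Both are products of anterior pituitary cells and are not typical of cortex. The NS libraries held far more of both, 6129 counts of Gh (41.3 to 49.5 CPM) and 648 of Prl, whereas RES held 0 counts of Gh and ANH 10. Other pituitary transcripts were too scarce to compare or also made in brain. Cga, the shared hormone subunit, had 0 counts in SA, RES and ANH, 3 in SA:ANH and 203 in NS, and Fshb had 0 in SA, 12 in SA:ANH and 26 in NS. Pou1f1, the factor of the cells that make both hormones, had 0 in SA and SA:ANH and 5 in NS, and Pomc had 878 in SA and 719 in SA:ANH. In the IP fraction Gh had 0 counts in SA, 46 in SA:ANH and 428 in NS. Whether these reads came from the cortex, from pituitary tissue or from other libraries of the series, such as those of NS, was not tested, so the counts may not be levels in cortical cells.

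A pair of genes past 2-fold remain uncertain. Xlr3b, which has near-identical copies on the X chromosome between which reads can be split, was called at 1.14 ± 0.28 (adjusted p = 0.0181), and was at 1.15 without the 3 libraries (adjusted p = 0.0998). Snurf had 781 counts in SA, in 4 of the 6 libraries, and 0 in SA:ANH, but it shares its transcript with Snrpn, whose mean level was 2305 CPM in SA and 2297 CPM in SA:ANH (log2 fold change -0.01).

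The values against NS show on which side each gene's difference lay. SA and SA:ANH are both set against the same NS libraries, so these values are not independent of each other and are given side by side. For Arc the log2 fold change was 0.32 in SA (adjusted p = 0.00205) and 1.06 in SA:ANH (adjusted p = 1.65e-14). Fos had 0.33 (adjusted p = 0.083) and 0.97 (adjusted p = 4.66e-08), Npas4 0.44 (adjusted p = 0.0266) and 1.03 (adjusted p = 9.19e-08), and Junb 0.31 (adjusted p = 5.69e-05) and 0.67 (adjusted p = 7.89e-13). Dusp1 (0.15 and 0.77) and Btg2 (-0.01 and 0.59) were not called in SA and were called in SA:ANH. For these 6 immediate early genes SA:ANH was the group farther from NS, whereas Egr1 was 0.19 in SA (adjusted p = 0.00417) and 0.13 in SA:ANH (adjusted p = 0.0519).

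A second pattern was the reverse, with SA away from NS and SA:ANH near it. Gria2 was -0.32 in SA (adjusted p = 1.4e-06) and 0.06 in SA:ANH (adjusted p = 0.447), and Snap25 was -0.25 (adjusted p = 4.41e-08) and -0.03 (adjusted p = 0.685). Serinc1, a multipass membrane protein gene tied to serine incorporation into lipids, was 400 to 438 CPM in SA (median 412) and 457 to 556 CPM in SA:ANH (median 505), with no overlap (0.28 ± 0.04, adjusted p = 5.98e-06). Against NS it was -0.29 in SA and -0.01 in SA:ANH. On the lower side, Purb, a single-stranded DNA and RNA binding protein gene, was 198 to 218 CPM in SA (median 212) and 156 to 181 CPM in SA:ANH (median 169), again apart (-0.31 ± 0.04, adjusted p = 4.08e-06). Against NS it was 0.20 in SA and -0.12 in SA:ANH, and its relative Pura was 0.27 and -0.03. The same order held for the sodium-driven bicarbonate transporter gene Slc4a10 (-0.51 in SA and -0.01 in SA:ANH), the ubiquitin ligase gene Trim23 (-0.75 and -0.08), the synaptic adhesion gene Slitrk4 (-0.60 and 0.18), the mitophagy receptor gene Bnip3 (-0.20 and 0.06), the axonal adhesion gene Cntn1 (-0.20 and 0.05), Smn1 of the spliceosome assembly complex (0.39 and -0.08), the DNA demethylase gene Tet3 (0.45 and -0.01) and Ppp1r1b (0.27 and -0.07). Each of these 8 was called in SA against NS and not in SA:ANH against NS. Between SA:ANH and SA, Slc4a10 (0.50), Trim23 (0.68), Slitrk4 (0.78), Bnip3 (0.26), Cntn1 (0.25), Smn1 (-0.48) and Tet3 (-0.46) were each called, all but Tet3 also without the 3 libraries (-0.40, adjusted p = 0.0796). With the pseudogene share as a covariate Bnip3 and Cntn1 kept their calls and the other 5 did not. Pura, Bnip3 and Cntn1 were chosen after their values were seen. Over all genes, 515 were called in SA against NS (2.83%) and 1026 in SA:ANH against NS (5.65%).

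A further order was seen for Mbp, where both groups were above NS, by 0.31 in SA and 0.11 in SA:ANH, and for Dbp, with 0.41 in SA and 0.68 in SA:ANH. Ptgds was -0.11 in SA (adjusted p = 0.058) and -0.37 in SA:ANH. Penk was 0.20 in SA (adjusted p = 0.0723) and -0.24 in SA:ANH (adjusted p = 0.0185).

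The same 2 groups were also compared in the ribosome pulldown, and the difference between the 2 fractions was tested itself. In the IP libraries 2260 of 18937 genes were called (11.9%), 1115 higher (5.89%) and 1145 lower (6.05%), and for 1810 genes (9.56%) the Input difference and the IP difference were unlike. The immediate early genes that rose in bulk cortex did not rise alike in the pulldown. Fos fell by 0.49 in the IP fraction (adjusted p = 0.00107), so that the Input difference exceeded the IP difference by 1.13 ± 0.16 (adjusted p = 2.27e-07). Npas4 fell by 0.61 in IP (adjusted p = 0.00487, difference of 1.20, adjusted p = 6.84e-05) and Dusp1 by 0.43 (adjusted p = 1.29e-06, difference of 1.05, adjusted p = 1.88e-13). Arc was 0.23 in IP (adjusted p = 0.091) and still differed between fractions, by 0.51 ± 0.12 (adjusted p = 0.00385), and for Btg2 the difference was 0.69 (adjusted p = 0.000753). In the whole list 4 of 34 rose and 4 fell in IP, where 5.89% and 6.05% of all genes did.

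Gria2, higher in bulk cortex, was -0.13 in IP (adjusted p = 0.0253), and the fractions differed by 0.50 (adjusted p = 7.02e-10). Penk showed the widest split among the genes described, falling by 0.43 in Input and rising by 1.15 in IP (adjusted p = 2.33e-19), a difference of -1.58 (adjusted p = 1.11e-18). Cryab was likewise higher in IP, by 1.34 (difference -1.57, adjusted p = 2.98e-16), and Cplx2 by 0.61 (difference of -0.88). Mbp fell in both, by 0.57 in IP (adjusted p = 1.15e-18) and by less in Input (difference of 0.37, adjusted p = 4.9e-07). Some genes moved the same way in both fractions: Snap25 rose by 0.27 in IP (adjusted p = 1.65e-09), Vgf fell by 0.26 (adjusted p = 0.000578), and Dbp rose by 0.48 (adjusted p = 5.56e-13), by more than in Input (difference of -0.21, adjusted p = 0.0236). The 5 genes with the smallest p between the fractions, Ap3b2, Crym, Hpca, Olfm1 and Sst, did not pass in Input, where their values lay between -0.06 and 0.11. The interneuron peptide gene Sst was 475 to 532 CPM in SA Input and 446 to 527 CPM in SA:ANH Input (-0.06, adjusted p = 0.434), against a rise of 1.35 in IP (adjusted p = 6.08e-28).

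**Figure D5:**
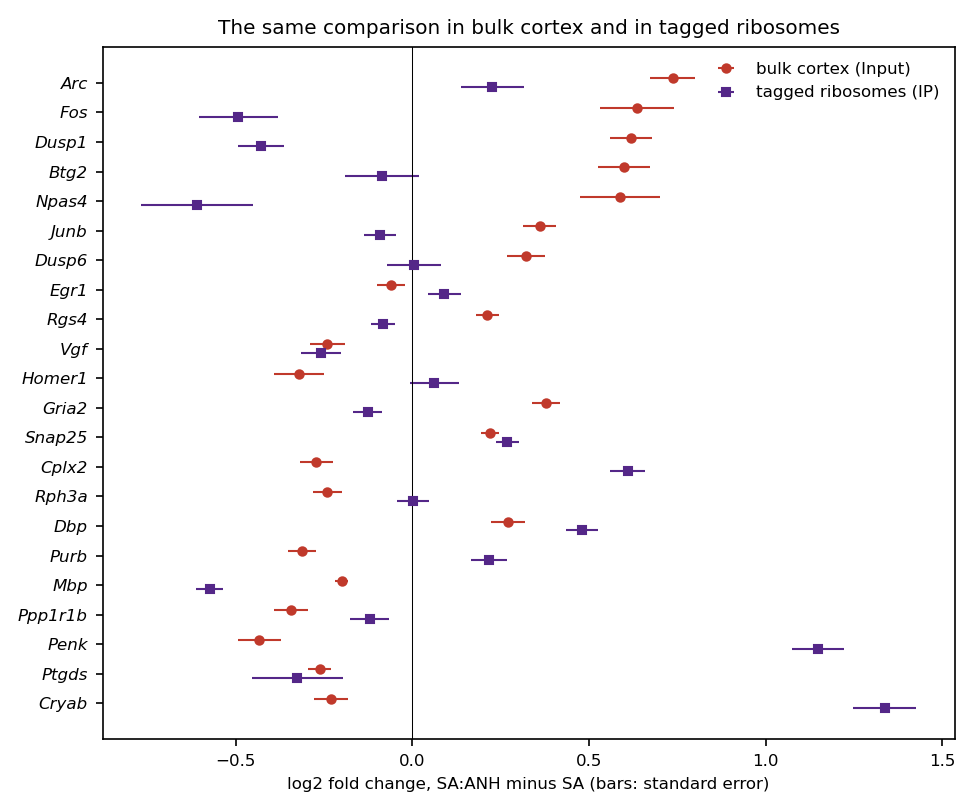
Log2 fold change (SA:ANH minus SA, x axis) with its SE for 22 genes, in Input and in IP. Fos, Npas4 and Dusp1 lie above 0 in Input and below 0 in IP, Penk and Cryab the other way round, and Snap25, Dbp, Mbp and Vgf lie on the same side in both.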

How the data were processed

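The deposited table holds expected counts, estimated read counts per gene of which 88.4% are whole numbers (within 1e-06), for 55414 genes in 60 libraries, and 19770 genes are at 0 throughout. SMART-Seq v4 and TruSeq kits were used for the libraries, sequenced as paired reads of 100 bases, per the labels' protocols. Reads were trimmed with Trimmomatic 0.32 and aligned to mm10 with TopHat2 2.0.13 and Bowtie2 2.2.3, per the submitters' processing notes. The counter, its annotation and its use of strand are not stated in the labels or notes.

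Counts were rounded to whole numbers. The 30 Input libraries of 5 groups were fitted together with edgeR 4.0.16 (R 4.3.3), so that all groups share the estimate of the spread. Steps were TMM scaling, filterByExpr with a minimum count of 10, and the quasi-likelihood test of SA:ANH minus SA with Benjamini-Hochberg adjustment. A second fit over all 60 libraries tested the Input difference minus the IP difference. The common biological coefficient of variation was 18.6%, and 6.54% among the most abundant genes. No libraries were repeats: chi-square per degree of freedom between libraries of a group was 8.19 to 15.2. Alternatives used limma 3.58.1 (voom with quality weights), DESeq2 1.42.0, other scalings and filters, and left-out libraries. The script was tested on simulated data.

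Genes named are the 15 largest rises and 15 largest falls called at 10 CPM or more, without pseudogenes and predicted genes, the 10 smallest p, up to 4 members of each list described by smallest p, the 5 smallest p between fractions, Fos, Fkbp5, Bdnf, Rpl10a and tissue markers, and not all were described; some are not reported here. The comparison, the naming rule and the 42 gene lists were chosen with earlier results of these data known. Gene positions and types are GENCODE's on GRCm38, matched by gene identifier for 52133 genes. The start positions in the deposited table equal those of GRCm38 for 2.98% of these genes, so the table's own positions are not printed. The 95% intervals and floors cover counting error only.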

Additional observations from a re-analysis of the deposited data

Results flagged for a closer look

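Among 92 genes followed closely, 184 groups of 6 libraries were screened for 1 library far from the other 5, and 14 were found, where chance gives about 1 in 20. In SA:ANH, library 1 had 195 CPM of Gria2 (the other 5 from 203 to 205) and 71.7 CPM of Ly6c1 (others 61.7 to 64.8). SA:ANH library 2 had 536 CPM of Ptgds (others 486 to 504) and 116 CPM of Rpl10a (others 82.5 to 91.6). Single values stood apart for Acat2 in SA:ANH library 3 (146 CPM), Cga in SA:ANH library 5 (0.129 CPM, the others at 0) and Smn1 in SA:ANH library 6 (14.2 CPM). In SA they were Nptx1 in library 2 (284 CPM), Gjb6 (61.1 CPM) and Junb (133 CPM) in library 3, Cryab (124 CPM) and Plk2 (251 CPM) in library 5, and Jund (176 CPM) and Trim23 (11.5 CPM) in library 6. For Gria2, Ptgds, Junb, Rpl10a, Ly6c1 and Smn1 the SA and SA:ANH groups do not overlap with that library included.

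For 40 of the 92 genes followed, the difference between SA:ANH and SA was not the same in bulk cortex as in the pulldown by the test of the difference (edgeR, adjusted over all genes). Over all 18937 genes of that test, this held for 1810 (9.56%). Many of the 92 were chosen for their Input difference, which enters this test, so the 2 shares cannot be compared. The Input difference was the more positive one by 1.20 for Npas4, 1.13 for Fos, 1.05 for Dusp1, 0.69 for Btg2, 0.51 for Arc, 0.45 for Junb, 0.39 for Gadd45g and 0.32 for Dusp6 among immediate early genes. The same sign was seen for Trim23 (0.67), Slc4a10 (0.58), Gria3 (0.51), Gria2 (0.50), Cntn1 (0.41), Mbp (0.37), Rgs4 (0.30), Serinc1 (0.27), Ptpn5 (0.19) and Nsf (0.14). It was also seen for Hspa8 (0.31), Sdha (0.29), Fdft1 (0.25), Hsp90aa1 (0.23) and Atp5b (0.21). The Input difference was the more negative one for Penk (-1.58), Cryab (-1.57), Nptx2 (-1.18), Akap5 (-1.08), Cplx2 (-0.88), Cdkn1a (-0.66), Nptx1 (-0.60), Tet3 (-0.58), Dlgap3 (-0.54) and Purb (-0.53). The rest on that side were Slc1a2 (-0.51), Smn1 (-0.47), Pura (-0.40), Homer1 (-0.38), Rph3a (-0.24), Dbp (-0.21) and Atp5h (-0.17). Fos, Npas4, Dusp1, Gria2, Penk, Cryab and Cplx2 were among those called in opposite directions in the 2 fractions.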

How the results depend on the processing

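Of 643 called genes, 287 higher and 356 lower, other settings gave different numbers. DESeq2 called 1029 (456 higher, 573 lower), a fit of only the 12 libraries 276 (131 and 145), and leaving out processed pseudogenes 399 (194 and 205). Leaving out 1 library at a time gave 225 to 805 called, 110 to 341 higher and 115 to 464 lower: 225 (110 higher, 115 lower) without SA 5, 279 (159 and 120) without SA:ANH 1, 405 (173 and 232) without SA:ANH 2, and 191 higher without SA 3. Among alternatives added after seeing the data, leaving out SA:ANH 1, SA:ANH 2 and SA 5 gave 88 (58 and 30), and the processed-pseudogene share as a covariate 54 (31 and 23). The cause was not tested. The split moved toward rises by over 10 percentage points without SA:ANH 1, without the 3 libraries and with the pseudogene share, and toward falls by over 10, to 193 higher and 423 lower with upper-quartile factors, 231 and 463 with a mean of at least 1 CPM, and 209 and 457 without SA:ANH 3. Removing a GC trend (added after seeing the data) gave 256 and 478. Size factors of DESeq2's kind (640), voom (580) and no filter (462) stayed within 1.5 times. The 1810 genes that differed between fractions were 1394 to 1868 over 4 alternatives.

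The replicate block gave 850 called genes (359 higher, 491 lower), and 1868 between fractions. Deviations of same-numbered libraries correlated at -0.04 to 0.15, and 2 of 6 numbers fitted best with themselves. Correlations this weak cannot show whether same-numbered libraries shared a batch, which was not tested. The mitochondrial share was highest in library 6 of both groups, at 2.13% in SA and 2.01% in SA:ANH. Of the 92 genes followed closely, 37 kept direction and side of the threshold without the 3 libraries, 33 with the pseudogene share, 61 of 89 in the fit of the 12 libraries, 75 without a filter, 91 of 91 with DESeq2, and 82 to 91 in the rest. The values of 3 uncalled genes changed sign. With 1 library left out, Drd1 ranged from -0.12 to 0.040 (0.0094, 0.0095 and 0.038 without SA:ANH 1, 2 and 6, 0.0083 and 0.040 without SA 3 and 6), and it was 0.032 without the 3 libraries. Fkbp5 ranged from -0.11 to 0.031 (0.031 without SA:ANH 6, 0.0091 without SA 3), and Cga from 0, without SA:ANH 5, to 2.61. Depth limits statements on Drd2, Cga and other genes of a few CPM.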
